A study of Homo sapiens with 12 samples.

Results

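The transcripts described here are the long noncoding RNAs named LINC (long intergenic non-protein coding RNA) that were expressed in A375 cells, a human melanoma line from skin. They were selected on their name and their level, with a gene name that starts with LINC and 0.5 FPKM or more as the mean of all 6 input libraries. FPKM counts sequenced fragments, scaled to the transcript's length and to the total mapped in a library. Of the 29696 genes in the authors' expression table, 779 had a LINC name, and 114 of these reached the level, while 665 did not. Both groups were A375 cells labelled with the tissue skin and infected with a lentivirus. One carried shALKBH5, a short hairpin RNA against ALKBH5, and the other carried shCtrl, which the paper calls Scramble. The labels call the shCtrl cells wild type, and the methods do not say which ALKBH5 hairpin the sequenced cells carried. Each group had 3 input libraries of poly(A) RNA and 3 libraries of RNA precipitated with an antibody against m6A (MeRIP-Seq), and the methods state harvest at 48 h after infection for the RNA-Seq. The methods state in general that experiments were repeated independently, without naming the sequencing, and the labels do not say that the 3 libraries of a group came from separate cultures. The p-values therefore measure the spread between these libraries, which may be technical.

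A LINC name marks a long RNA gene that lies between protein-coding genes and has no known protein product, and it is given by position and not by function. Many such RNAs are spliced and polyadenylated like mRNA, stay in the nucleus and are present at few copies per cell. The name is replaced once a role is known or once the gene is seen to share a start region with a coding gene. m6A, a methyl group on adenosine, is placed on mRNA and on long noncoding RNA by the METTL3 complex, and ALKBH5 is a nuclear enzyme that removes it.

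The targeted gene was examined first. ALKBH5 was at 3.39, 3.92 and 3.12 FPKM in the shALKBH5 libraries and at 19.3, 17.8 and 17.6 FPKM in the shCtrl libraries. The log2 fold change was -2.36 (SE 0.0887, adjusted p = 1.276e-06 by limma with Benjamini-Hochberg adjustment), and the groups did not overlap (two-sided exact permutation p = 0.1, which is the lowest value possible with 3 and 3 libraries). FPKM summed to 221946 to 223231 in the shALKBH5 libraries and to 212760 to 218966 in the shCtrl libraries, and the read depth behind these values is unknown. SOX10, which defines the melanocyte lineage, was at 179 to 192 FPKM in all 6 libraries, while the pigment genes PMEL, TYR, DCT and TYRP1 were under 0.7 FPKM in each library. S100B, another gene of that lineage, was at 79.0 to 85.1 FPKM in shALKBH5 and 31.5 to 34.2 FPKM in shCtrl libraries. The 5 markers of melanoma cells of the mesenchymal kind summed to 68.5 to 70.0 FPKM in shALKBH5 and 136 to 152 FPKM in shCtrl libraries, with NGFR, a nerve growth factor receptor, at 5.49 to 5.95 FPKM and 32.4 to 36.5 FPKM. Summed markers of other cell types moved between the groups, with 4 fibroblast genes at 5.07 to 6.14 FPKM in shALKBH5 and 8.31 to 9.22 FPKM in shCtrl libraries. Of these, PDGFRB was lower in shALKBH5 (2.64 to 2.88 against 6.89 to 7.85 FPKM), while LUM (2.09 to 3.19 against 1.13 to 1.19 FPKM) and DCN (0.255 to 0.321 against 0.158 to 0.212 FPKM) were higher. The 2 keratinocyte genes with values summed to 10.7 to 11.5 FPKM and 8.90 to 9.53 FPKM, with KRT10 higher (10.4 to 11.3 against 7.99 to 8.46 FPKM) and KRT14 lower (0.242 to 0.526 against 0.830 to 1.07 FPKM) in shALKBH5. Of the leukocyte genes listed, PTPRC and CD3E had no values, and CD68 was at 38.1 to 41.9 FPKM in shALKBH5 and 14.8 to 17.2 FPKM in shCtrl libraries. The 3 endothelial genes stayed under 0.39 FPKM in sum. Their part in the results below was not tested. In bulk libraries such as these, fewer cells that express an RNA and less of it per cell cannot be told apart.

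The LINC-named RNAs were scarce transcripts. Their median level was 1.14 FPKM, at the 19.4th percentile of the 12985 genes that passed the same level of 0.5 FPKM and were tested, whose median was 3.93 FPKM. Only 7 of the 114 reached 5 FPKM and 69 reached 1 FPKM. The 10 highest were, in falling order of the mean over the 6 libraries, LINC01819 (9.82 FPKM), LINC02802 (9.74 FPKM), LINC01029 (7.72 FPKM), LINC00623 (6.07 FPKM), LINC02381 (5.55 FPKM), LINC00857 (5.36 FPKM), LINC00294 (5.22 FPKM), LINC02434 (4.80 FPKM), LINC00963 (4.56 FPKM) and LINC00973 (4.50 FPKM). The 3 just inside the level were LINC00552, LINC01615 and LINC00668, with means of 0.513, 0.508 and 0.503 FPKM, and the 3 just outside were LINC01882 at 0.4996 FPKM, LINC01715 at 0.4994 FPKM and LINC00174 at 0.487 FPKM. LINC02802 and LINC00623 lie in the part of chromosome 1 around the centromere that holds near-identical copies, as do LINC00622, LINC00869, LINC01138 and LINC01145, and their levels are uncertain because reads can be shared between copies.

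Summed over the 114 genes, the level was 230.5, 236.6 and 226.9 FPKM in the shALKBH5 libraries and 187.1, 187 and 185.2 FPKM in the shCtrl libraries. All shALKBH5 sums lay above all shCtrl sums, with means of 231.3 ± 4.92 FPKM (SD, n = 3) and 186.4 ± 1.09 FPKM (SD, n = 3). This was 0.102 to 0.106% of all FPKM in the shALKBH5 libraries and 0.0851 to 0.0879% in the shCtrl libraries.

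Gene by gene, 70 of the 114 (61.4%) passed the test between the groups (limma on log2(FPKM + 0.1), adjusted p under 0.05), where 61.0% of all genes tested did. By direction, 57 (50.0%) were higher in shALKBH5 cells, against 34.7% of all genes tested, and 13 (11.4%) were lower, against 26.2%. Of the genes that passed, 81.4% of the LINC-named RNAs and 57.0% of all genes were higher, and this difference was not tested. With the libraries rescaled by the median ratio these shares were 78.5% and 49.3%. The libraries of the groups did not overlap for 81 (71.1%), of which 65 were higher and 16 lower, where 67.0% of all genes tested did not overlap. A change of more than 1 on the log2 scale that passed the test was found for 24 (21.1%), 20 higher and 4 lower, against 11.7% of all genes tested. The median log2 fold change was 0.40 (quartiles 0.03 and 0.79), and that of all genes tested was 0.09. With a pseudocount of 1 these medians were 0.21 and 0.06, and the difference between them went from 0.31 to 0.15.

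The level that chose the genes can itself favour change. Of the 114, 17 were under 0.5 FPKM in the shCtrl mean only and 6 in the shALKBH5 mean only, and these 23 reached the level through the higher group. Among the other 91, 54 (59.3%) passed, 45 higher and 9 lower, with a median log2 fold change of 0.36. Of these 91, 12 (13.2%) passed with a change of more than 1, 11 higher and 1 lower. The 11.7% of all genes tested was not limited to genes at the level in both groups. That limit removes large changes, so the 2 shares cannot be compared directly. Tested genes of like level did not have the split of directions seen in the LINC-named RNAs. Of the 4265 under 2 FPKM, 46.5% passed, 1081 higher and 902 lower, with a median of 0.09. Of the 86 LINC-named RNAs under 2 FPKM, 61.6% passed, 45 higher and 8 lower, with a median of 0.44. The 28 at 2 FPKM or more had 12 higher (42.9%) and 5 lower (17.9%) and a median of 0.22. Of the 5100 genes tested at 2 to 10 FPKM, 36.1% were higher and 28.0% lower, with a median of 0.08. These differences in share were not tested.

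Other long noncoding RNA names had a similar split of directions. Of 166 antisense RNAs (names ending in AS and a number), 86 were higher and 14 lower, with a median log2 fold change of 0.49. Of 34 host genes, which carry microRNAs or small nucleolar RNAs in their introns, 21 were higher and 4 lower, with a median of 0.56. Of 27 divergent transcripts (names ending in DT), which start back to back with a coding gene, 18 were higher and 0 lower, with a median of 0.69. The 3 classes passed the test in 60.2%, 73.5% and 66.7% of their genes, and the host genes were more abundant, with a median level of 4.14 FPKM.

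**Figure D1:**
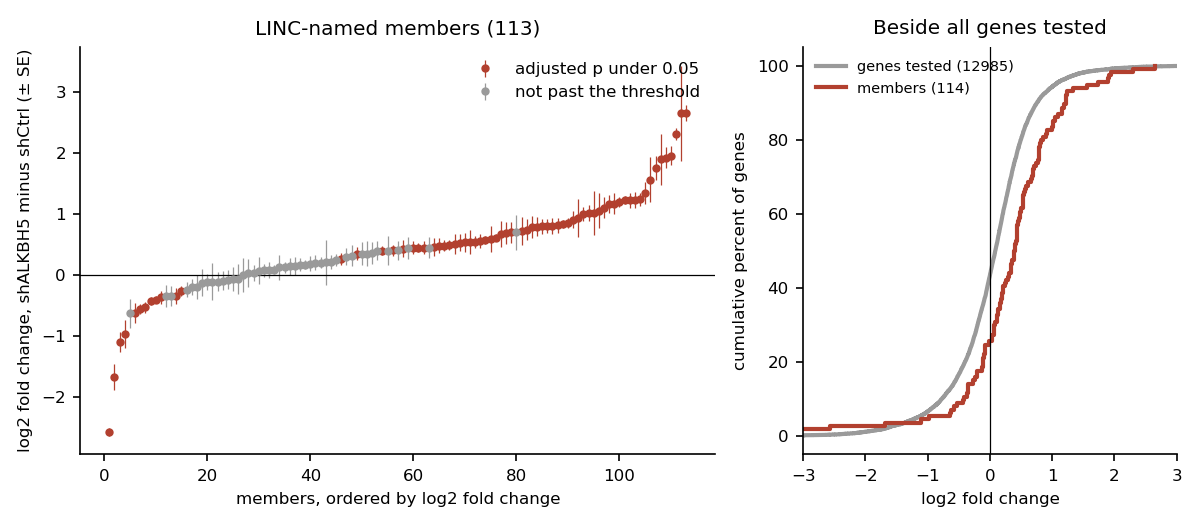
Left, log2 fold change (shALKBH5 minus shCtrl, on log2(FPKM + 0.1)) of 113 LINC-named RNAs in rising order, with SE bars and red for an adjusted p under 0.05, leaving out LINC01173, which was listed at 0 in shALKBH5. Right, cumulative percent of the 114 LINC-named RNAs and of the 12985 genes tested against log2 fold change from -3 to 3, with medians of 0.40 and 0.09.

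The most abundant LINC-named RNA of the control cells was also the one with the largest fitted decrease among those with values in every library. LINC01819 (ENSG00000231826, chr2:43027823-43040662, minus strand in the authors' annotation) was at 2.71, 2.67 and 2.88 FPKM in the shALKBH5 libraries and at 18.1, 16.0 and 16.5 FPKM in the shCtrl libraries. No library of one group came near those of the other. Its log2 fold change was -2.57 (SE 0.07, adjusted p = 3.177e-07 by limma). LINC01173 (ENSG00000280744, chr2:234682668-234717764, plus strand) was listed at 0 in each of the 3 shALKBH5 libraries, against 2.51, 2.20 and 2.10 FPKM in the control. No fold change is given for it.

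LINC01224 (chr19:23399233-23416075), which lies within a cluster of zinc finger genes, was at 0.294, 0.158 and 0.182 FPKM in shALKBH5 and at 0.863, 0.852 and 0.926 FPKM in shCtrl libraries. Its log2 fold change was -1.68 (SE 0.21, adjusted p = 3.888e-04 by limma), and -0.64 with a pseudocount of 1, since the values are low. LINC00337, since renamed ICMT-DT because it starts back to back with ICMT, the enzyme that methylates the end of prenylated proteins, fell from 0.854 ± 0.106 to 0.340 ± 0.0188 FPKM (SD, n = 3 each). LINC00540 fell from 0.823 ± 0.247 to 0.359 ± 0.0372 FPKM (SD, n = 3 each). Their log2 fold changes were -1.11 and -0.98, with adjusted p = 7.491e-04 and 0.00815 by limma, and -0.47 and -0.42 with a pseudocount of 1. LINC01224, LINC00337 and LINC00540, like LINC01173, were under 0.5 FPKM in the shALKBH5 mean. They reached the level through the shCtrl libraries, so the way genes were chosen favours their change.

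Smaller decreases included RNAs with studied roles. LINC01578, now CHASERR, lies next to CHD2, a chromatin remodeller whose expression it restrains, and it was at 2.28, 2.36 and 2.05 FPKM in shALKBH5 and at 3.14, 3.08 and 3.60 FPKM in shCtrl libraries. All its shALKBH5 values were below all shCtrl values, and its log2 fold change was -0.53 (adjusted p = 0.00178 by limma). CHD2 itself had a log2 fold change of 0.25 (adjusted p = 0.137). LINC00511, which is raised in several carcinomas, fell from 2.14 ± 0.111 to 1.41 ± 0.0103 FPKM (SD, n = 3 each), a log2 fold change of -0.57 (adjusted p = 7.396e-04). LINC00294 and LINC00707 fell by 0.44 and 0.41 on the log2 scale and LINC01963 by 0.63, with adjusted p = 9.546e-04, 7.500e-04 and 0.0121.

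The largest increases were in RNAs that the control cells held at a mean under 2 FPKM. Of these, LINC01992, LINC02289, LINC00239, LINC00052 and LINC01023 were under 0.5 FPKM in the shCtrl mean. They reached the level through the shALKBH5 libraries, so the way genes were chosen favours their change. LINC01992 (ENSG00000260019, chr17:27928924-27991787, minus strand) was at 2.33, 2.11 and 2.52 FPKM in shALKBH5 and at 0.250, 0.299 and 0.306 FPKM in shCtrl libraries. Its log2 fold change was 2.65 (SE 0.13, adjusted p = 4.301e-06 by limma). LINC01537 (ENSG00000227467, chr11:72570660-72573229, plus strand), close to PDE2A, a phosphodiesterase gene, was at 2.90, 2.96 and 3.28 FPKM in shALKBH5 and at 0.538, 0.550 and 0.517 FPKM in shCtrl libraries. Its log2 fold change was 2.31 (SE 0.10, adjusted p = 2.091e-06). For both, the lowest shALKBH5 library was several-fold above the highest shCtrl library. With a pseudocount of 1 the log2 fold changes of LINC01992 and LINC01537 were 1.37 and 1.40.

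LINC00973 (chr3:98981058-98983096) was at 6.49, 6.93 and 8.00 FPKM in shALKBH5 and at 2.09, 1.35 and 2.12 FPKM in shCtrl libraries. The log2 fold change was 1.91 (SE 0.17, adjusted p = 6.495e-05). LINC02289 (chr14:77069169-77076392) was at 1.68, 2.05 and 2.01 FPKM in shALKBH5 and at 0.492, 0.343 and 0.438 FPKM in shCtrl libraries, a log2 fold change of 1.95 (SE 0.15, adjusted p = 3.628e-05), which was 1.03 with a pseudocount of 1. The groups of both RNAs were well apart. LINC00239, LINC00052, LINC01023, LINC01003, LINC02765 and LINC02732 completed the 10 largest increases, with log2 fold changes of 1.89, 1.74, 1.56, 1.34, 1.23 and 1.22 and adjusted p-values by limma of 0.00586, 1.857e-04, 0.00838, 5.758e-04, 6.476e-05 and 1.296e-04. With a pseudocount of 1 the log2 fold changes of these 6 were 0.83, 0.79, 0.77, 0.84, 0.82 and 0.73 in the same order. LINC00239 and LINC01023 had the widest spread of these, with shCtrl values of 0.131 to 0.626 FPKM and 0.219 to 0.719 FPKM.

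**Figure D2:**
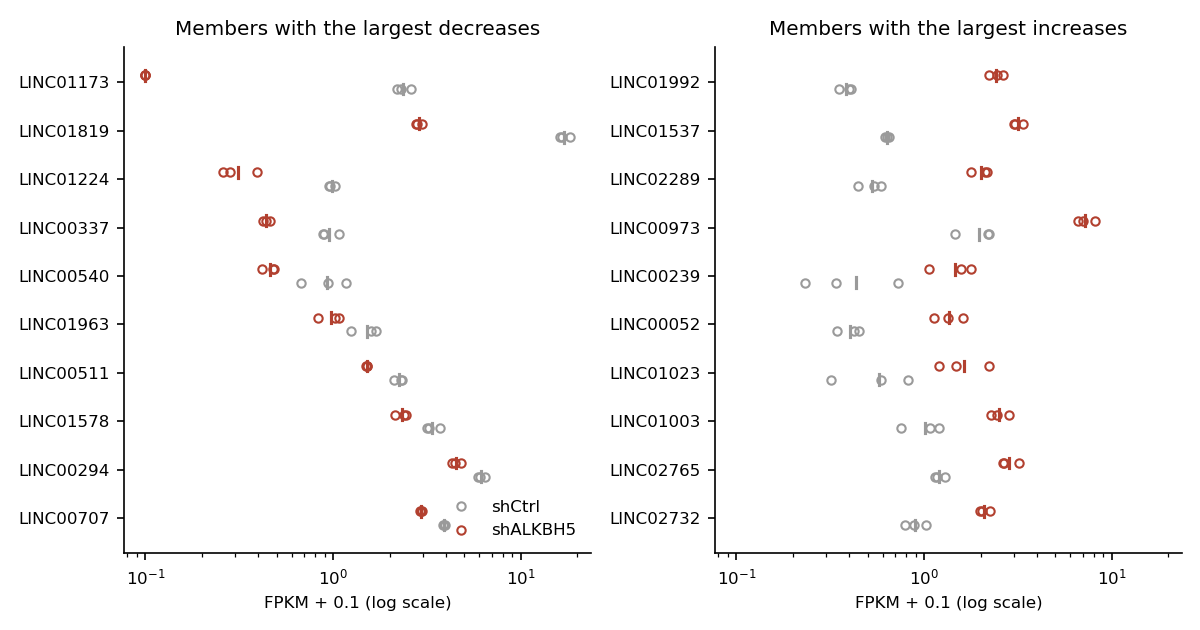
FPKM plus 0.1 on a log axis in each input library (open circles, 3 per group) with the group mean (vertical bar), for the 10 LINC-named RNAs with the largest decreases (left) and the 10 with the largest increases (right) among those that passed the test without overlap. LINC01173 sits at the pseudocount of 0.1 because it was listed at 0, and LINC01819 falls from 16.9 to 2.75 FPKM in the mean. LINC01173, LINC01224, LINC00337, LINC00540, LINC01992, LINC02289, LINC00239, LINC00052 and LINC01023 reached the level of 0.5 FPKM through their higher group only.

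Of the 10 most abundant RNAs, LINC01029 had the largest increase after LINC00973. It was at 11.1, 11.1 and 10.3 FPKM in shALKBH5 and at 4.32, 4.53 and 4.95 FPKM in shCtrl libraries, a log2 fold change of 1.22 (SE 0.07, adjusted p = 6.647e-06 by limma). LINC02434, LINC02381, LINC00623, LINC02802 and LINC00963 rose by 0.82, 0.61, 0.57, 0.49 and 0.39 on the log2 scale, with adjusted p = 3.439e-05, 6.126e-05, 3.600e-04, 0.00142 and 0.00224. LINC00857, studied in carcinomas, did not pass the test, with a log2 fold change of 0.20 (adjusted p = 0.0948). LINC-named genes listed for a known role or a known microprotein were looked up by the listed name only. A gene that stands in the table under a newer name was therefore not found. Of 21 such genes, 9 were in the table under the listed name and 3 were among the 114. They were LINC00511 (above), LINC00339, next to the CDC42 gene of a small GTPase, with a log2 fold change of -0.27 (adjusted p = 0.0254, and up to 0.0914 with a library left out), and LINC00467, which encodes a mitochondrial microprotein, at -0.08 (adjusted p = 0.677). LINC00518 and LINC00520, both studied in melanoma, were below the level, with means of 0.298 and 0.299 FPKM, and LINC-PINT, a p53-linked RNA, was at 0.296 FPKM.

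LINC02367 was chosen for mention after its values were seen, because its fitted change was among the largest while its libraries disagreed. It was at 0.358, 2.55 and 1.47 FPKM in shALKBH5 and at 0.0533, 0.410 and 0 FPKM in shCtrl libraries. The groups overlapped. Its log2 fold change was 2.65 with an SE of 0.78 (adjusted p = 0.0210 by limma), and with each library left out in turn it ran from 2.10 to 3.36, with an adjusted p of up to 0.068. Over every alternative run it lay between 1.00 and 4.12, with an adjusted p of up to 0.0751.

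Start regions of 5 of the RNAs with large changes are shown so that the changed genes can be compared at the sequence level. RefSeq promoter windows, of 250 bases before to 50 bases after the start of the gene in GRCh38.p14, were matched by symbol for 74 of the 114, and in 51 of these the RefSeq start lay within 500 bp of the start in the authors' annotation on the same strand. LINC01173 and LINC01224 fell and LINC01992, LINC01537 and LINC02289 rose. Their windows, 5′ to 3′ on the strand of the gene, are chr2:234682418-234682717 (plus), chr19:23416025-23416324 (minus), chr17:27991658-27991957 (minus), chr11:72570406-72570705 (plus) and chr14:77076142-77076441 (minus). Capitals mark matches, on either strand, to TATAAA (the TATA box), GGGCGG (the GC box), CACGTG (the E-box) or TGACTCA (the AP-1 site).
LINC01173: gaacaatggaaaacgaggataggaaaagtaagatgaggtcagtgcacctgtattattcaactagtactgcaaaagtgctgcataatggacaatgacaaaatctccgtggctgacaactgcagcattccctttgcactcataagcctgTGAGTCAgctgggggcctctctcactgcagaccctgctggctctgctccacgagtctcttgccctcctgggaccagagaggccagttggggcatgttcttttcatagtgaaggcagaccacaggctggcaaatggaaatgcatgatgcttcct
LINC01224: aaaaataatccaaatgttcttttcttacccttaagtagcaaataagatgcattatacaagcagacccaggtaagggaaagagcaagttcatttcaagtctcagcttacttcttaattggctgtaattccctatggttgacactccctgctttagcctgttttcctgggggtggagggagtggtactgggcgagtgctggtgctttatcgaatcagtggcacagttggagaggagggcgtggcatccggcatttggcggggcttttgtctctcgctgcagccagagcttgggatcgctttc
LINC01992: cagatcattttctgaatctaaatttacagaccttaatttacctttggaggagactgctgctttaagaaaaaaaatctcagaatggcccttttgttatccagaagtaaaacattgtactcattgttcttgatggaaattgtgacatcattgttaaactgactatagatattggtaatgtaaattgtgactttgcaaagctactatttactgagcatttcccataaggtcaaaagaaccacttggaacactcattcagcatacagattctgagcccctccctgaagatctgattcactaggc
LINC01537: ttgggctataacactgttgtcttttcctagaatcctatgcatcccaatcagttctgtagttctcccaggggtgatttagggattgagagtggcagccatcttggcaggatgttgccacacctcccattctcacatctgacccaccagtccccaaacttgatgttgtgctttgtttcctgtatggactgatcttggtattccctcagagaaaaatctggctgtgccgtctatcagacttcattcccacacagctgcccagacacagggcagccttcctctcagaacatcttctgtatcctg
LINC02289: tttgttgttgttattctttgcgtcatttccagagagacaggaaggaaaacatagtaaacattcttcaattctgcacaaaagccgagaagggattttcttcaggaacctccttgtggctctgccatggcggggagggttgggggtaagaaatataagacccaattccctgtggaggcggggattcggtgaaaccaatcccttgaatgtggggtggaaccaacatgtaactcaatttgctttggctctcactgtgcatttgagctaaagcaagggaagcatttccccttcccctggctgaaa

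The window of LINC01173 holds a TGACTCA match on the opposite strand, 103 bases before the start, and the other 4 windows hold none of the 4 motifs. Their GC content was at most 50.0%, in LINC01173, below the median of 59.0% over the 51 windows of LINC-named RNAs and of 58.3% over all 27305 RefSeq promoters. Of the 51 windows, 6 (11.8%) hold TATAAA, 26 (51.0%) GGGCGG, 2 (3.92%) CACGTG and 3 (5.88%) TGACTCA. Over all promoters, TATAAA was in 3264 (12.0%), GGGCGG in 44.6%, CACGTG in 7.43% and TGACTCA in 4.92%. No 2 matches overlapped in the windows printed. These are letter matches and no sites were measured.

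To place these RNAs in their loci, each was set beside its nearest tested gene without a LINC name. Of 114 such pairs, 43 had both genes past the test, and 25 of the 43 (58.1%) changed in the same direction. The share for all other genes tested and their nearest tested neighbours was 58.5% (2850 of 4870). Pearson's r between the log2 fold changes of the paired genes was 0.33 over the 114 pairs, 0.22 over the 113 without LINC01173, and 0.11 over the 12871 other genes. All these values come from the same 6 libraries, genes are not independent replicates, and the difference was not tested. By distance, the count in the same direction was 7 of 9 for overlapping pairs, 4 of 5 for pairs that start head to head within 5000 bp, 8 of 13 within 50000 bp and 6 of 16 farther apart. For other genes these shares were 60.5%, 66.2%, 55.2% and 56.6%.

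LINC01819 lay far from its nearest tested gene, which fell too. LINC01819 is 181740 bp from ZFP36L2, on the same strand, which encodes a protein that destabilises AU-rich mRNA. ZFP36L2 fell from a mean of 12.6 FPKM to 4.12 FPKM, a log2 fold change of -1.60 (adjusted p = 5.231e-06 by limma). LINC00511 and LINC00707 also fell with their neighbours, SLC39A11 and the long noncoding RNA LINP1, both of which had a log2 fold change of -0.89. ICMT, head to head with LINC00337, had a log2 fold change of -0.38 (adjusted p = 1.199e-04), smaller than that of the RNA.

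Among the increases, LINC02289 and its neighbour CIPC, a repressor of the circadian CLOCK protein 21734 bp away, rose together, with 1.30 on the log2 scale for CIPC (adjusted p = 1.310e-05 by limma). PDE2A, 2912 bp from LINC01537, did not pass the test, with a log2 fold change of -0.22 (adjusted p = 0.139). LYRM9, the neighbour of LINC01992, rose by 0.56 (adjusted p = 0.0110), and DCBLD2, the neighbour of LINC00973, rose by 0.23 (adjusted p = 0.0286). Opposite directions also occurred. LINC01224 fell while ZNF91 rose by 0.64 (adjusted p = 0.0232), and LINC02765 rose while LBR, a receptor of the nuclear lamina, had a log2 fold change of -0.38 (adjusted p = 0.0207). LINC00460 and LINC00205 were chosen after their values were seen. LINC00460 rose by 0.85 (adjusted p = 7.801e-05) while EFNB2, an ephrin ligand 105430 bp away, had a log2 fold change of -2.42 (adjusted p = 2.231e-06). LINC00205 rose by 1.18 (adjusted p = 1.918e-05) with POFUT2, an O-fucosyltransferase gene whose start is 152 bp away on the opposite strand and which rose by 0.61 (adjusted p = 1.882e-04). LINC01029, LINC00294 and LINC00339 overlap their neighbours on the same strand, so reads may be shared between the pair and the direction of these pairs is uncertain.

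**Figure D3:**
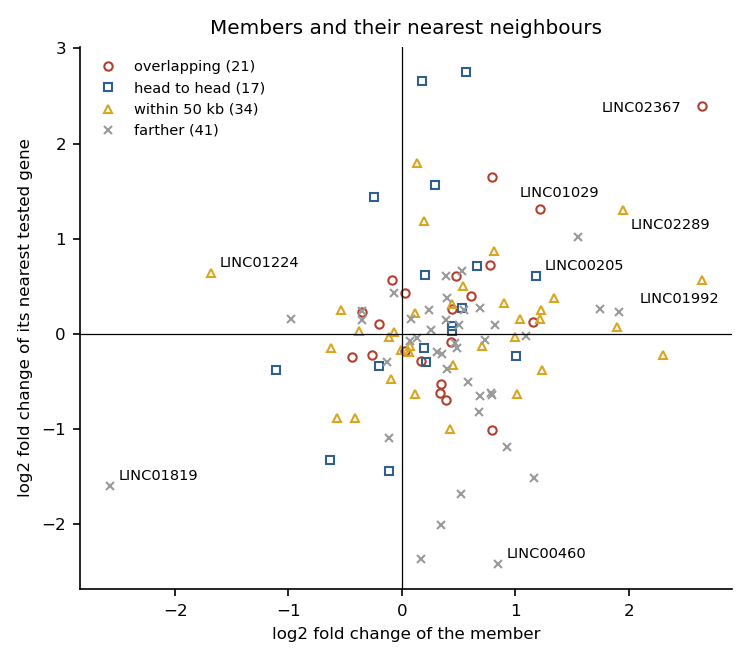
Log2 fold change (shALKBH5 minus shCtrl) of 113 LINC-named RNAs against that of the nearest tested gene without a LINC name, with marks by position (21 overlapping, 17 head to head, 34 within 50 kb, 41 farther; LINC01173 left out). Points fall in all 4 quadrants, and LINC01819 lies at -2.57 with its neighbour at -1.60.

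The m6A data are the authors' peaks, joined into 1 list per group, so that a peak has no replicate check and no test is given. Of the 114 RNAs, 95 (83.3%) had a peak in the shALKBH5 list, with 308 peaks, and 93 (81.6%) in the shCtrl list, with 299 peaks. The same shares of all genes tested were 86.0% and 85.5%. Most RNAs had the mark in both lists (91), 4 had peaks in the shALKBH5 list only, 2 in the shCtrl list only and 17 in neither. Where these RNAs stand among the authors' differential peaks (65 peaks), each peak is annotated as exonic in a noncoding RNA. The RNAs with peaks had 3.24 and 3.22 peaks each, against 2.80 and 2.73 for tested genes. The median fold enrichment of precipitated over input RNA was 5.97 in the shALKBH5 and 5.85 in the shCtrl list, against 5.31 and 5.25 over all peaks. At least 1 base of overlap on the same strand linked 80.8% (shALKBH5) and 87.6% (shCtrl) of the peaks of these RNAs to the other list, and 78.1% and 81.3% of all peaks. With an overlap of 50% of both peaks the order turned, at 48.7% and 50.2% against 51.6% and 53.7% of all peaks.

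The RNAs without any peak included abundant ones. LINC00623, LINC00294, LINC00339 and LINC01578 (CHASERR) had none in either list at mean levels of 6.07, 5.22, 3.62 and 2.75 FPKM. Peaks of LINC00668, LINC00888, LINC01173 and LINC01198 were in the shALKBH5 list only, with fold enrichments of 4.90, 1.98, 7.35 and 3.74, and those of LINC00467 and LINC02802 in the shCtrl list only, with up to 4.26 and 19.2. Where an FDR no higher than 0.01 and 2-fold enrichment or more were required, LINC00668, LINC00888 and LINC01173 had no peak left, while LINC01198, LINC00467 and LINC02802 did. The peak of LINC01173 (chr2:234695741-234717764, a span that can include introns) stands in the group in which the RNA was listed at 0 in every input library, and its log10 p was -1.45. LINC00668 was at 0.641 to 0.727 FPKM in shALKBH5 and 0.117 to 0.472 FPKM in shCtrl libraries, a log2 fold change of 1.01 (adjusted p = 0.0414 by limma). With a library left out the log2 fold change ran from 0.59 to 1.29, with an adjusted p of up to 0.0998. Over every alternative run it was as low as 0.36.

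Along the gene span, introns included, peaks of these RNAs were spread more evenly from end to end than over all genes. Each peak was placed by the midpoint of its own span. Of these RNAs' peaks, 38 in the shALKBH5 and 31 in the shCtrl list were longer than 10 kb, so the midpoint need not be where the mark is. With each gene span cut into 5 equal parts, the part at the 3′ end held 35.7% of the shALKBH5 and 32.1% of the shCtrl peaks of LINC-named RNAs, against 44.2% of all peaks in each list. The part at the 5′ end held 21.4% and 23.7%, against 19.4% and 19.7%. The 3 parts between held 13.0%, 14.3% and 15.6% in the shALKBH5 list and 14.0%, 18.1% and 12.0% in the shCtrl list. This difference was not tested.

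**Figure D4:**
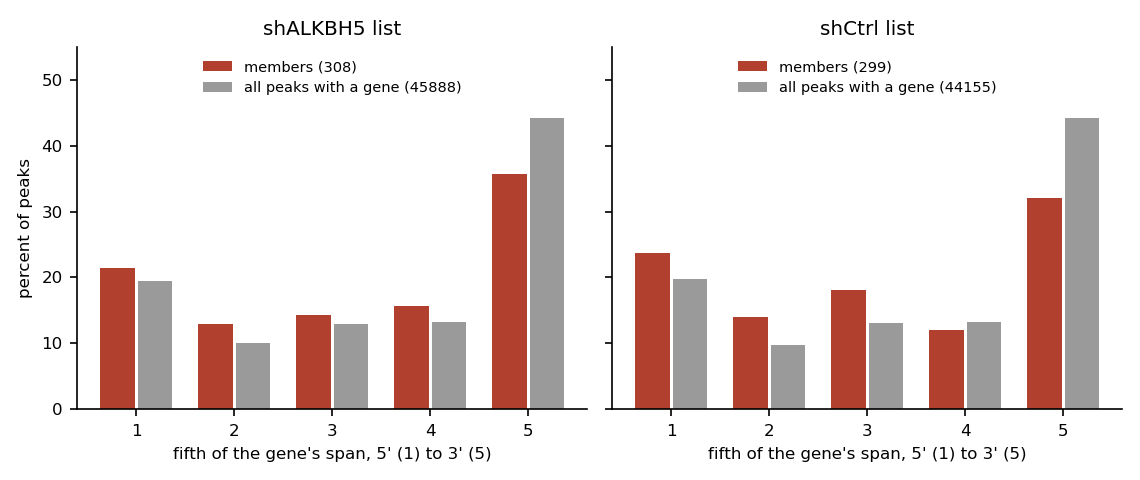
Percent of m6A peaks by part of the gene span, cut into 5 from the 5′ end (1) to the 3′ end (5), for LINC-named RNAs (308 and 299 peaks) and for all peaks with a gene (45888 and 44155 peaks), in the shALKBH5 list (left) and the shCtrl list (right). Part 5 is the highest in each set, at 35.7% and 32.1% for the LINC-named RNAs and 44.2% for all peaks.

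Peaks of the lists that overlapped each other most were paired to compare the strength of enrichment. Of 208 pairs in LINC-named RNAs, 85 (40.9%) had the higher fold enrichment in the shALKBH5 list, against 45.9% of all 30661 pairs. In 52 pairs (25.0%) the values differed more than 2-fold, 22 higher and 30 lower in shALKBH5. Of all pairs 17.6% differed by as much, 2650 higher and 2752 lower. The median log2 ratio was -0.12 (quartiles -0.59 and 0.32), and that of all pairs was -0.05. In pairs with an FDR no higher than 0.01 and 2-fold enrichment or more in both lists, 30 of 156 (19.2%) differed more than 2-fold. Of all such pairs 16.1% did, 1736 higher and 1764 lower in shALKBH5. The direction of the larger differences in LINC-named RNAs turned, with 16 higher and 14 lower. The higher value was in shALKBH5 for 45.5% of the 156 pairs, against 45.6% of all such pairs.

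Single pairs differed in both directions. A peak of LINC00540 had a fold enrichment of 50.2 in the shALKBH5 and 3.05 in the shCtrl list, with spans of chr13:22040972-22275424 and chr13:22040972-22107563. The same shALKBH5 peak also covers the other shCtrl peak of this RNA, at chr13:22264341-22275245, which had a fold enrichment of 9.58. Peaks of LINC01569 (chr16:4245379-4246755 in shALKBH5) had 66.1 and 10.2, and those of LINC00337 (chr1:6238698-6239444) had 25.7 and 5.33. LINC00540 and LINC00337 are also among the RNAs with the largest decreases in the input, with shALKBH5 means of 0.359 and 0.340 FPKM. Input is the denominator of the fold enrichment, and whether its fall gave the higher ratios was not tested. The log10 p was -22.9 in shALKBH5 against -18 in shCtrl for LINC00540, and -13.5 against -15.7 for LINC00337. Lower fold enrichments in shALKBH5 were found for LINC00265 (chr7:39733580-39733880), at 2.62 against 15.3, and for LINC01819 (chr2:43027823-43029390), at 4.22 against 11.1. LINC00265 rose in the input, by 1.22 on the log2 scale (0.68 with a pseudocount of 1), while LINC01819 fell. LINC01569, LINC00265 and the pairs named here were chosen after their values were seen.

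**Figure D5:**
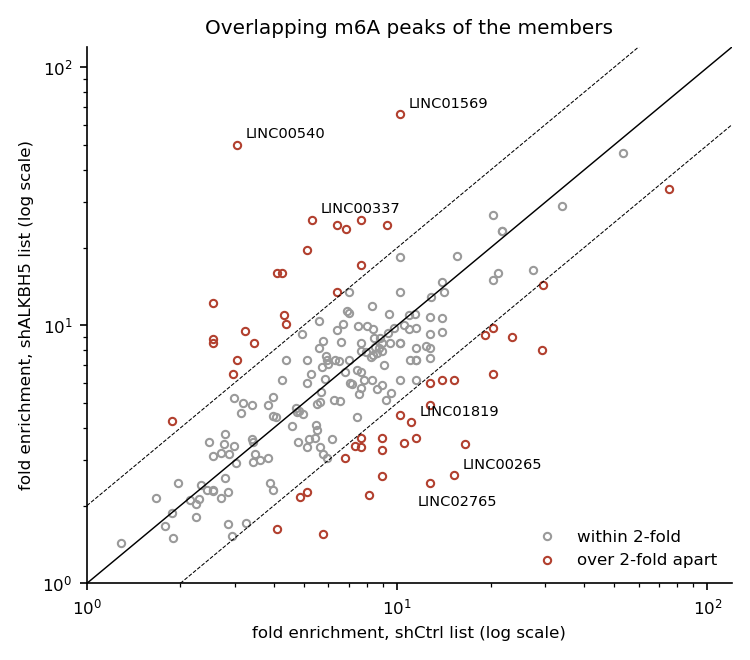
Fold enrichment in the shALKBH5 list against that in the shCtrl list, both on log axes, for the 208 overlapping peak pairs of LINC-named RNAs. The solid line marks equal values and the dashed lines 2-fold, and 52 pairs (red) lie outside them, 22 above and 30 below.

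LINC00963, studied in prostate cancer, carried the most peaks of the shALKBH5 list, 13, and had 12 in the shCtrl list. Within this RNA the pairs went both ways, from 6.46 against 20.4 in a peak at chr9:129486956-129490979 in shALKBH5 and chr9:129476946-129490949 in shCtrl to 8.82 against 2.55 in a peak at chr9:129510039-129510549. LINC00707 had 11 peaks in each list, LINC01128 had 11 and 13, LINC00511 had 10 in each, and LINC00869, one of the uncertain RNAs of chromosome 1, had 11 and 3. The authors' table of differential peaks listed 42 of the 114 RNAs (36.8%) with 65 peaks, against 32.7% of all genes tested. LINC00963 had 6 of these peaks, LINC00707 had 5, LINC01184 had 4 and LINC00205 had 3. Of LINC02367, the 10 largest increases and the 10 largest decreases, LINC02367, LINC00052, LINC02765, LINC02732, LINC00511 and LINC00707 were in that table. LINC01819, LINC01173, LINC01224, LINC00337, LINC00540, LINC01963, LINC01578, LINC00294, LINC01992, LINC01537, LINC00973, LINC02289, LINC00239, LINC01023 and LINC01003 were not.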

How the data were processed

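A375 cells with shALKBH5 or shCtrl were measured by RNA-Seq (input) and MeRIP-Seq (IP), 3 libraries of each kind per group, and were grouped by their labels. The authors deposited expression as FPKM per input library, and the aligner, counter and annotation are not given in the sources used here. The labels describe a stranded (dUTP) library, whether counting used strand is not given, and they name the build mm10, although gene IDs and coordinates are human and the sequences shown were matched to GRCh38.p14. The same table holds the authors' own fold change, log2 fold change, p-value and q-value, which were not used. For m6A, the peaks of each group stand in 1 list deposited by the authors, which gives the fold enrichment (a ratio of IP over input) and a log10 p and FDR, treated as a score. The caller and the way replicates were joined are not given. Of the authors' differential peak table, which also holds a log2 fold change, p-value and FDR per peak, only the genes and positions were used. Starts were changed to count from 1.

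Members and lists were chosen with earlier results of these data known. Genes that reached 0.5 FPKM in the mean of the 6 libraries were tested with limma 3.58.1 in R 4.3.3 (lmFit, eBayes with a trend) on log2(FPKM + 0.1). P-values were two-sided and adjusted over 12985 genes by Benjamini and Hochberg's method. The paper names edgeR, which needs counts that were not used here. Fold changes on this scale understate changes of low genes. Low values showed no whole-read steps (at most 0.216% shared a ratio), so depth is unknown and the 3 libraries per group limit the precision. The test was tested on simulated data. Peaks were overlapped with bedtools 2.31.1, and tables and figures were made in Python 3.11.15 (pandas 2.3.3, numpy 2.4.6, matplotlib 3.10.9). IDs of all 114 members matched the table of gene names, and 5 have newer symbols.

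By rule, the genes named were drawn from ALKBH5, the 10 highest members, the 10 largest increases and decreases among members that passed without overlap, members listed at 0 in a group, the 3 members and the 3 other LINC genes nearest the level, members of the role and microprotein lists, members with the most peaks or in the differential table, and the nearest tested gene of each, of which 1 is not reported here. Not every gene with a differential peak or many peaks, nor every such neighbour, is named. LINC00518, LINC00520 and LINC-PINT stand on the role list and were not members. LINC00622, LINC01138, LINC00888 and LINC01198 were named outside this rule, for their place on chromosome 1 or their peaks in 1 list only. The alternatives changed 1 choice each: the pseudocount (1 or 0.01), the filter (none or 1 FPKM), the scaling (median ratio), a block for the replicate number, eBayes with no trend, a library left out, stricter peaks (2-fold enrichment or more and FDR no higher than 0.01) and the overlap of peaks (50% of both). Peak sequences were not analysed here, nor were single IP libraries.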

Additional observations from a re-analysis of the deposited data

How the results depend on the processing

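The number of LINC-named RNAs higher in shALKBH5 cells was 57 and, when libraries were left out one by one, 44 to 54, while the number lower was 13, and 11 to 12. Their median log2 fold change ran from 0.39 to 0.42 in these fits. A filter at 1 FPKM, which left 69 of the RNAs, gave 36 higher. The median was 0.21 with a pseudocount of 1, which shrinks low values. With both peaks overlapping by at least 50%, the shared peaks of these RNAs were 48.7% of the shALKBH5 and 50.2% of the shCtrl list, below the 51.6% and 53.7% of all peaks, where with 1 base they were above. Rescaling by the median ratio gave 51 higher and 14 lower (78.5% higher), while over all genes tested the higher share of calls went from 57.0% to 49.3%, and the median of all genes from 0.09 to 0.02. ALKBH5 kept its direction and passed the threshold in all alternatives. Of the 70 RNAs that passed, 51 passed in every alternative in which they were tested, 19 did not in at least one, and 0 turned direction. The replicate numbers did not pair the libraries, since the correlations of same-numbered deviations were 0.018, -0.046 and 0.059. With the number as a block, 51 were higher and 11 lower, and the median stayed at 0.40. Stricter peaks left 88 (77.2%) and 90 (78.9%) RNAs with a peak, against 78.4% and 77.9% of all genes tested, so that the shCtrl share went from below to above that of all genes. Depth is unknown, so counting error at these low levels could not be set beside the spread between libraries.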
